A study of Mus musculus with 5 samples.

Results

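The cell cycle genes described here are 38 genes of DNA replication and mitosis, found by symbol among the 31053 genes of the count matrices from mouse ventral skin. They comprise 14 genes of replication and S-phase entry (Ccne1, Ccne2, Tyms, Rrm1, Rrm2, Pcna, Mcm2 to Mcm7, Pclaf and Tk1), 22 genes of mitosis, and Hmgb2 and Stmn1, which were put in neither set. All 38 were measured. They were read per cell class, per library and per genotype, together with the share of cells holding at least 3 UMIs (unique molecular identifiers, that is, counted transcripts) summed over Mki67, Top2a, Cdk1 and Birc5. Cells that met this 4-gene rule are called marked cells below.

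The skin came from C57BL/6J mice at postnatal day 28. Wild-type animals (WT) gave 2 libraries, and animals with Prx1Cre and floxed alleles of Ikkb (Prx1Cre+Ikkbf/f, called Ikkb_cKO) gave 3, each library from a pool of 2 mice. Prx1Cre is driven by an enhancer of Prrx1 that is active in limb and trunk mesenchyme, so it is not restricted to a single type of skin fibroblast, and by its title the study asked about NF-kB in Prx1+ fibroblasts. The tissue was digested with collagenase, dispase and DNase, and debris, dead cells and aggregates were sorted away before droplet capture with 10x 3' chemistry.

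Cells copy their DNA in S phase and divide it in M phase. Cyclin and cyclin-dependent kinase pairs drive both steps, E2F factors switch on most replication genes at the entry to S phase, and a later wave that depends on the MuvB complex with B-MYB and FOXM1 switches on the mitosis genes. In skin after the first weeks of life, most dermal fibroblasts are out of the cycle, whereas basal keratinocytes, some tissue macrophages and activated lymphocytes divide.

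The libraries held 3206 and 3393 cell barcodes in WT and 1017, 945 and 2523 in Ikkb_cKO, with 14659158 and 16773096 total UMIs in WT and 2163166, 2350022 and 9738296 in Ikkb_cKO. Of 11084 barcodes, 10390 were kept, and any 2 libraries shared 0 to 17 barcodes. The labels do not say whether the libraries came from separate animals, so p-values rest on a spread between libraries that may be technical. Library 3 of Ikkb_cKO stood apart from its group. The summed counts of fibroblast-like cells differed between Ikkb_cKO libraries 1 and 2 with a chi-square per degree of freedom of 1.46. The same measure was 14.3 and 15.1 between these and library 3, and 4.74 between the WT libraries. All of these are above sampling noise, and every library was counted as a sample. Ikbkb, the gene of the floxed allele, stood at 14.3 and 17.7 CPM (counts of the gene scaled to equal library totals) in WT fibroblast-like cells and at 16.3, 21.3 and 15.7 in Ikkb_cKO. The floxed part is not given in the sources used here, so this 3' tag level does not check the labels.

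Promoters are shown first because 14 of 17 mitosis genes tested and 6 of 12 replication genes tested fell in fibroblast-like cells, as described below. RefSeq promoter windows on GRCm38.p6 were found for 32 of the 38 genes, and the 250 bases before the annotated start were searched on both strands. The motifs were CCAAT, which is the NF-Y box, TTTGAA and TTTAAA, which are 2 forms of the cell cycle homology region, and E2F-type strings. These were TTGGCGC and TTCGCGC with the related strings TTCCCGC and TTGCCGC. E2F-type strings can overlap each other. A listed gene was counted if any of its windows held the motif, while all 32851 windows were counted singly. A gene with more than 1 window thus had more chances to match, so the 2 kinds of share are not on the same footing. CCAAT stood in 17 of 19 mitosis genes (89.5%), in 9 of 12 replication genes (75%) and in 33.8% of all windows. TTTGAA stood in 8 of 19 mitosis genes (42.1%), 1 of 12 replication genes (8.33%) and 16.0% of all windows. TTTAAA stood in 5 of 19, 3 of 12 and 12.1%. E2F-type strings stood in 3 of 19 mitosis genes (15.8%), 5 of 12 replication genes (41.7%) and 7.89% of all windows. A match is a description of letters and does not show binding.

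The windows printed are those of the 4 genes of the rule, of Ccnb2, the mitosis gene with the smallest p in fibroblast-like cells, of Tyms, the replication gene with the smallest p there, and of Mcm5 and Mcm6, subunits of the same helicase of which the first fell in fibroblast-like cells and the second did not pass the test there. Bases that the GENCODE annotation puts in an exon were left out. Capitals mark the motif strings, and each line reads 5′ to 3′ on the strand of the gene. The windows lie at chr7:135716380-135716629, chr11:99024190-99024439, chr10:69352939-69353162, chr9:70421555-70421804, chr5:30073626-30073875 and chr1:128359706-128359955 on the minus strand and at chr11:117848987-117849236 and chr8:75109259-75109508 on the plus strand of GRCm38.p6. That of Cdk1 ends 27 bases before the start, and the others end at the base before it.
Mki67: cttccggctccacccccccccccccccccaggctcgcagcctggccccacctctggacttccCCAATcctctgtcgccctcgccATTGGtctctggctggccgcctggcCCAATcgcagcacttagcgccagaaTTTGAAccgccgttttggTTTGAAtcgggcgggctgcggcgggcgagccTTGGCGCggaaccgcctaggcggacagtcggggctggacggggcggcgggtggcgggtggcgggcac
Top2a: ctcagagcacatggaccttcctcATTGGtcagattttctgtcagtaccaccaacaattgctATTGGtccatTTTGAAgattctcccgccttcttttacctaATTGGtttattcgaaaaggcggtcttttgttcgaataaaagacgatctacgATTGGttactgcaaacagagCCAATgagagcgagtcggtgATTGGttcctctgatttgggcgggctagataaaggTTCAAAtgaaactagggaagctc
Cdk1: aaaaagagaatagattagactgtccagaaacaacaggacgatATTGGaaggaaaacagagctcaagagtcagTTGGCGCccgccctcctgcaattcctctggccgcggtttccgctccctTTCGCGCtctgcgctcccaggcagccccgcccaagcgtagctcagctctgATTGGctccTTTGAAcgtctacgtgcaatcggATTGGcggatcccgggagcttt
Birc5: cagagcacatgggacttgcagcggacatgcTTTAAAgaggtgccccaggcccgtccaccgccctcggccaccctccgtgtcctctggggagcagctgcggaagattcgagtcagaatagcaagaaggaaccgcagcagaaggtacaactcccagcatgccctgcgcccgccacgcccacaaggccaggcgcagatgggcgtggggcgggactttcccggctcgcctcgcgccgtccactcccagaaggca
Ccnb2: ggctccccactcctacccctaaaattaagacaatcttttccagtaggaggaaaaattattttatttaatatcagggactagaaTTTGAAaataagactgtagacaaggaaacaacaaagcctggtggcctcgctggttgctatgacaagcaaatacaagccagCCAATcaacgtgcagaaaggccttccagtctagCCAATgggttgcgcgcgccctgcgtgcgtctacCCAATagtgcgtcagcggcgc
Tyms: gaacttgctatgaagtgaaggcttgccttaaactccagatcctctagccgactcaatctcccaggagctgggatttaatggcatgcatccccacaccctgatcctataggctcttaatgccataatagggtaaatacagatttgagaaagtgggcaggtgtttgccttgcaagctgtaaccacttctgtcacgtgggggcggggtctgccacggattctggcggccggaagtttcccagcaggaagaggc
Mcm5: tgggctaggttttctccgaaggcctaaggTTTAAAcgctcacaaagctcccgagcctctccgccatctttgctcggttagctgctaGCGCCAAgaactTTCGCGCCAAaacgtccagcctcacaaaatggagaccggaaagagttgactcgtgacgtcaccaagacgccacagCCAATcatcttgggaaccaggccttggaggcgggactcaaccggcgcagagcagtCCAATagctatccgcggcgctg
Mcm6: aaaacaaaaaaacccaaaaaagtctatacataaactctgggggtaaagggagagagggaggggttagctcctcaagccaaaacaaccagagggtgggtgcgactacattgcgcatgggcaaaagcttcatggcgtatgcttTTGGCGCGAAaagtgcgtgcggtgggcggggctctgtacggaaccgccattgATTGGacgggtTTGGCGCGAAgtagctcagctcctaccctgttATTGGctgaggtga
The Top2a window held 6 CCAAT strings and 2 TTTGAA strings, and that of Ccnb2 held 3 and 1. Mki67 and Cdk1 held both of these motifs and an E2F-type string as well. In Birc5 only TTTAAA was found among the strings searched, and in Tyms none of them. The Mcm5 and Mcm6 windows each held 2 CCAAT strings and several E2F-type strings, and Mcm5 also held TTTAAA.

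Marked cells were concentrated in 4 of the cell classes, and their place differed by genotype. Clusters were named from marker genes with the cell cycle genes left out of the clustering, and of 33 clusters 30 were named, in 10 classes. In all, 408 cells were marked, 240 of 6179 in WT and 168 of 4211 in Ikkb_cKO. In WT, 46.7% of marked cells were fibroblast-like, 38.8% myeloid-like, 7.08% lymphocyte-like and 1.25% keratinocyte-like. The same shares in Ikkb_cKO were 3.57%, 35.7%, 27.4% and 29.8%. These shares pool libraries, and Ikkb_cKO libraries 1, 2 and 3 gave 25, 17 and 126 of the marked cells. Library 3 held 48 of the 50 keratinocyte-like and 34 of the 46 lymphocyte-like ones, so the keratinocyte-like share rests on that library. Fibroblast-like cells made up 58.8% of all WT cells and 44.2% of all Ikkb_cKO cells, so their share of the marked cells differed more than their share of cells. Digestion, sorting and capture can set the shares of cells.

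**Figure D1:**
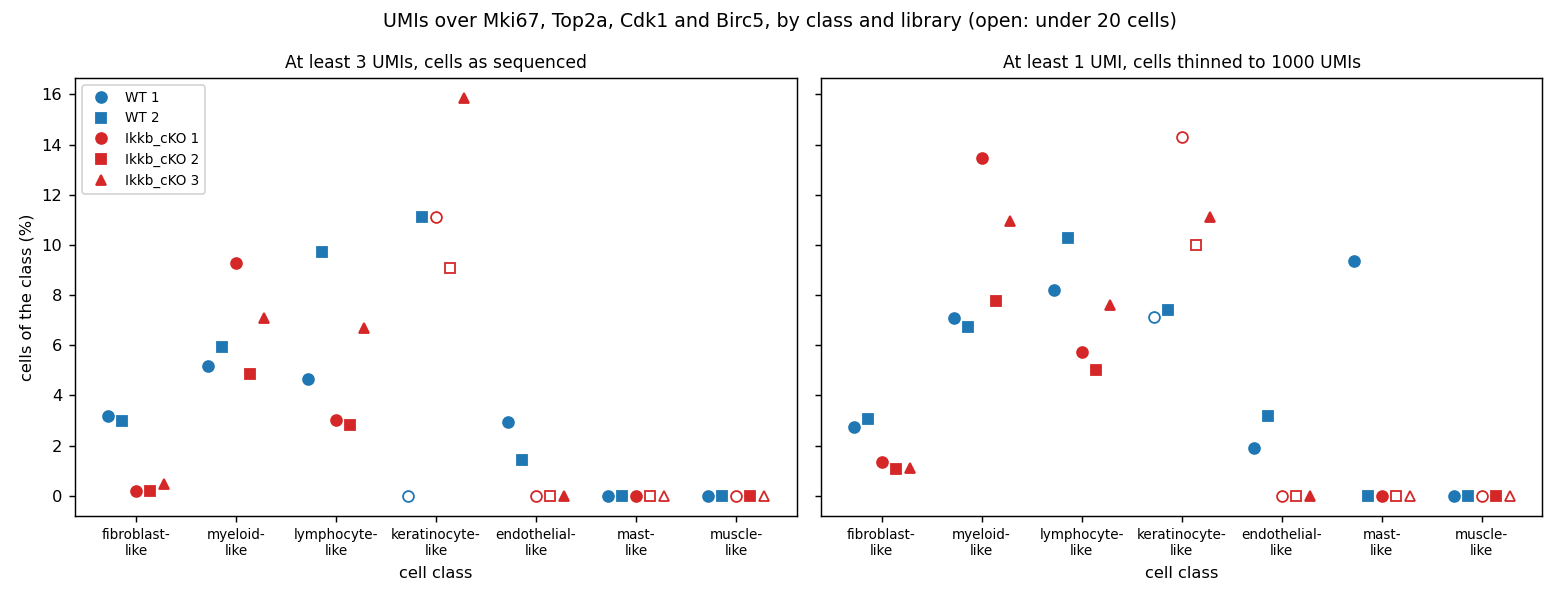
Share of cells with UMIs over Mki67, Top2a, Cdk1 and Birc5 by class, a point per library (blue WT, red Ikkb_cKO; open symbols rest on under 20 cells): at least 3 UMIs in cells as sequenced (left) and at least 1 UMI after thinning to 1000 UMIs (right). Fibroblast-like cells of both WT libraries sit near 3% and those of all 3 Ikkb_cKO libraries under 0.5% on the left, and at 2.74% to 3.07% against 1.07% to 1.33% on the right.

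Fibroblast-like cells had a lower share of marked cells in Ikkb_cKO. In WT libraries 1 and 2, 56 of 1762 cells (3.18%, exact binomial 95% interval 2.41% to 4.11%) and 56 of 1873 (2.99%, 2.27% to 3.87%) were marked. In Ikkb_cKO the counts in libraries 1, 2 and 3 were 1 of 518 (0.193%), 1 of 482 (0.207%) and 4 of 861 (0.465%). Both WT libraries lay above all 3 Ikkb_cKO libraries. The means were 3.08% ± 0.133 (SD, n = 2) and 0.288% ± 0.153 (SD, n = 3), a difference of -2.80 percentage points. An exact permutation test over libraries, two-sided, gave p = 0.1, the smallest p that 2 against 3 allows. All intervals and limits here cover counting error only.

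Sequencing depth moved with genotype in this class. The median was 4810 and 5299 UMIs per fibroblast-like cell in WT and 1547, 1750.5 and 2443 in Ikkb_cKO. With each cell thinned to 1000 UMIs, which left out 168 WT and 384 Ikkb_cKO cells, the share with at least 1 UMI over the 4 genes was 2.74% and 3.07% in WT and 1.33%, 1.07% and 1.10% in Ikkb_cKO. The groups still did not overlap, and the difference shrank to -1.74 percentage points (exact permutation p = 0.1). Unthinned, 7.21% and 7.63% of WT cells and 1.74%, 1.45% and 1.63% of Ikkb_cKO cells held any UMI of the 4 genes. Muscle-like cells, which do not divide as mature fibres, held none in any library (0 of 184 cells, median 1467 to 3345 UMIs by library). For the 140 WT muscle-like cells, a count of 0 allows a share of up to 2.14%.

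The marked fibroblast-like cells lay in clusters that were nearly empty in Ikkb_cKO. Cluster 3, led by Fabp4, Ccl2 and Timp1, held 59 marked of 615 WT cells (9.59%) and 1 of 35 Ikkb_cKO cells. Cluster 7, led by Ccl11, Postn and Col15a1, held 21 of 557 (3.77%) and 0 of 9, and cluster 6, led by Ptx3, Igfbp6 and Pi16, held 18 of 576 (3.12%) and 0 of 4. These 3 clusters held 98 of the 112 marked WT cells of the class. Ikkb_cKO cells lay mostly in clusters 4 and 8, both led by Ptx3 and Col6a5, with 1 marked of 600 and 0 of 488 cells, and in cluster 9, led by Mfap4, Eln and Col1a1, with 3 of 335. A count of 0 in 488 cells allows a share of up to 0.615%. Of the 335 cells of cluster 9, 331 came from Ikkb_cKO library 3.

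Within the clusters that both genotypes shared, a lower share was not detectable. Clusters 0, 5 and 10 had at least 10 cells in every library, and there 10 of 861 (1.16%) and 4 of 828 (0.483%) WT cells were marked, against 0 of 92, 0 of 100 and 1 of 131 (0.763%) Ikkb_cKO cells. The groups overlapped, and the difference was -0.57 percentage points (exact permutation p = 0.3). In the other 7 clusters 5.11% and 4.98% of WT cells were marked and, in Ikkb_cKO, 0.235%, 0.262% and 0.411%. In cluster 3 the thinned share went the other way, at 47 of 612 WT cells (7.68%) and 5 of 34 Ikkb_cKO cells (14.7%). Clusters were built without the cell cycle genes, but cluster membership, depth and genotype cannot be told apart here for most of the class.

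**Figure D2:**
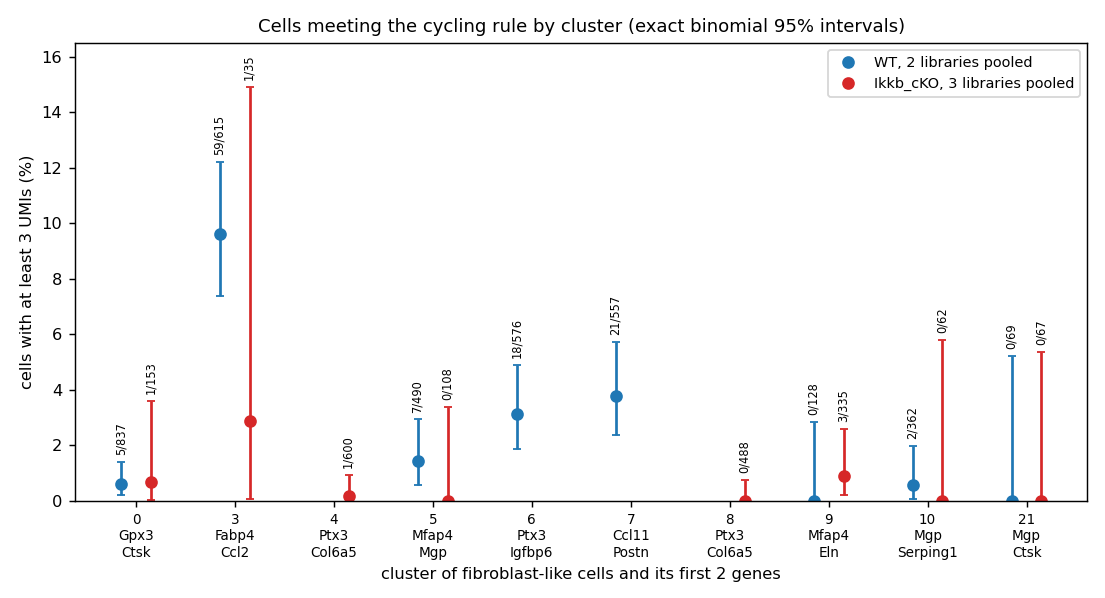
Share of marked cells in each cluster of fibroblast-like cells, by genotype with libraries pooled; bars are exact binomial 95% intervals, numbers are marked cells of all cells, and groups with under 20 cells are not drawn. Cluster 3 stands highest in WT (59 of 615), and clusters 4 and 8, almost entirely Ikkb_cKO, hold 1 of 600 and 0 of 488.

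Most of the genes themselves fell in fibroblast-like cells. UMIs were summed per library over the class and tested with edgeR's quasi-likelihood test. Of the 38 genes, 31 passed the filter on low counts, and 21 of these fell and 0 rose, while 18.3% of all 10419 genes tested were called lower and 17.3% higher. At an unadjusted p under 0.05, edgeR had 23 lower and 0 higher and DESeq2 21 and 0. With adjusted p, DESeq2 called 20 lower and 0 higher. The median log2 fold change was -2.06 over the 31 genes and 0.03 over all genes tested. Of the 31, 25 were lower in all Ikkb_cKO than in all WT libraries, against 31.3% of all genes. Leaving out WT library 1 or WT library 2 reduced the count from 21 to 9, the same 9 genes in both cases (Birc5, Ccnb2, Cdk1, Cenpa, Mki67, Pclaf, Stmn1, Tk1 and Tyms). Those 2 fits rest on 1 WT library each, and far fewer of all genes were called in them as well. Leaving out Ikkb_cKO library 3 left 21, of which 20 were the same. In summed cells, fewer dividing cells and less RNA of a gene per cell cannot be told apart.

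Among the mitosis genes, 14 of the 17 tested fell. Ccnb2, a mitotic cyclin, stood at 35.1 and 29.6 normalised CPM (scaled by TMM) in WT and at 6.04, 3.62 and 4.40 in Ikkb_cKO (log2 fold change -2.81, SE 0.25, edgeR adjusted p = 0.00147). Mki67, which coats mitotic chromosomes and is the standard proliferation marker, stood at 16.3 and 15.9 in WT and 2.01, 2.72 and 2.00 in Ikkb_cKO (log2 -2.87, SE 0.29, edgeR adjusted p = 0.00188). In both genes each WT library exceeded each Ikkb_cKO library several-fold. Birc5, a subunit of the chromosomal passenger complex, stood at 33.9 and 28.1 against 4.03, 6.34 and 6.40 (log2 -2.41, SE 0.25, edgeR adjusted p = 0.00206). Cenpa, the centromeric histone H3 variant, stood at 54.7 and 48.7 against 6.04, 1.81 and 10.00 (log2 -2.92, SE 0.38, edgeR adjusted p = 0.00304). Cdk1, the kinase that drives entry into mitosis, stood at 31.7 and 20.8 against 6.04, 3.62 and 2.00 (log2 -2.95, SE 0.42, edgeR adjusted p = 0.00365). For all 3 of these genes the groups did not overlap.

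The anaphase activator Cdc20 fell by 2.85 on the log2 scale (SE 0.42), the spindle assembly factor Tpx2 by 1.84 (SE 0.31) and the kinetochore protein gene Cenpf by 2.15 (SE 0.38), with edgeR adjusted p of 0.00424, 0.00642 and 0.00708. The other genes that fell were Top2a, the topoisomerase that untangles sister chromatids (-1.51), cyclin genes Ccna2 (-1.73) and Ccnb1 (-2.55), the kinetochore motor gene Cenpe (-2.25), Ube2c, an ubiquitin carrier of the anaphase-promoting complex (-2.06), and Plk1. Plk1, the polo-like kinase, had 151 UMIs in WT and 3 in Ikkb_cKO, so its pooled ratio of WT over Ikkb_cKO was 10.6 with a 95% counting interval of 3.56 to 51.9. Bub1b, Prc1 and Kif11, for a checkpoint kinase, a midzone protein and a spindle motor, stood at -1.04, -0.84 and -0.80 and did not pass. Prc1 and Kif11 overlapped between genotypes.

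Of the mitosis genes, 5 did not pass the filter on low counts. The checkpoint kinase gene Bub1 had 41 WT UMIs and 1 Ikkb_cKO UMI, a pooled ratio of 8.63 (1.46 to 349). The Aurora kinase gene Aurka had 71 and 3, a ratio of 4.98 (1.64 to 24.7), and the midzone motor gene Kif23 had 79 and 3, a ratio of 5.54 (1.83 to 27.4). All 3 intervals lie above 1 and cover counting error only. Aurkb, the kinase of the chromosomal passenger complex, and Nusap1, a microtubule bundler, had pooled ratios of 3.00 and 1.31.

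The replication genes split. Of the 12 tested, 6 fell, with a median log2 fold change of -0.68. Thymidylate synthase, Tyms, stood at 32.5 and 24.3 normalised CPM in WT and 2.01, 1.81 and 5.20 in Ikkb_cKO (log2 -2.98, SE 0.38, edgeR adjusted p = 0.0027). Pclaf, a partner of the sliding clamp, stood at 47.4 and 32.4 against 4.03, 9.96 and 6.40 (log2 -2.55, SE 0.33, edgeR adjusted p = 0.00286). Thymidine kinase, Tk1, stood at 24.0 and 15.1 against 0, 2.72 and 0.40 (log2 -4.43, SE 0.65, edgeR adjusted p = 0.00413), with 4 UMIs in all 3 Ikkb_cKO libraries. In these 3 genes both WT libraries lay far above every Ikkb_cKO library. The helicase subunit gene Mcm5 stood at 8.80 and 11.2 against 2.01, 0.906 and 2.40 (log2 -2.36, SE 0.38, edgeR adjusted p = 0.0055). Rrm2, the S-phase subunit of ribonucleotide reductase, fell by 1.87 (SE 0.41) and the helicase subunit gene Mcm7 by 0.78 (SE 0.22), with edgeR adjusted p of 0.0144 and 0.0321.

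The other replication genes did not pass. Pcna, the sliding clamp, stood at 35.9 and 36.2 normalised CPM in WT and at 35.2, 40.8 and 42.4 in Ikkb_cKO (log2 0.14, SE 0.16, edgeR adjusted p = 0.507). The groups overlapped and the levels lay close together. The helicase subunits Mcm6 (log2 -0.18), Mcm3 (-0.14), Mcm2 (-0.57) and Mcm4 (-0.52, SE 0.24) missed the threshold, as did Rrm1, the large reductase subunit (-0.52, SE 0.18, edgeR adjusted p = 0.0647). Mcm3 and Mcm6 overlapped between genotypes, while Mcm2, Mcm4 and Rrm1 were lower in every Ikkb_cKO library. Cyclin E genes Ccne1 and Ccne2, which drive entry into S phase, did not pass the filter, with 68 and 29 UMIs in WT and 9 and 5 in Ikkb_cKO.

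Hmgb2 and Stmn1 differed from each other as well. Stmn1, a tubulin-binding protein of dividing and migrating cells, stood at 141 and 118 normalised CPM in WT and 20.1, 18.1 and 16.0 in Ikkb_cKO (log2 -2.87, SE 0.18, edgeR adjusted p = 0.00107), the smallest p of the 38 genes. Hmgb2, a chromatin protein of proliferating cells, stood at 76.7 and 68.8 in WT and 52.3, 83.3 and 67.6 in Ikkb_cKO (log2 -0.10, SE 0.20, edgeR adjusted p = 0.728), and the groups overlapped.

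**Figure D3:**
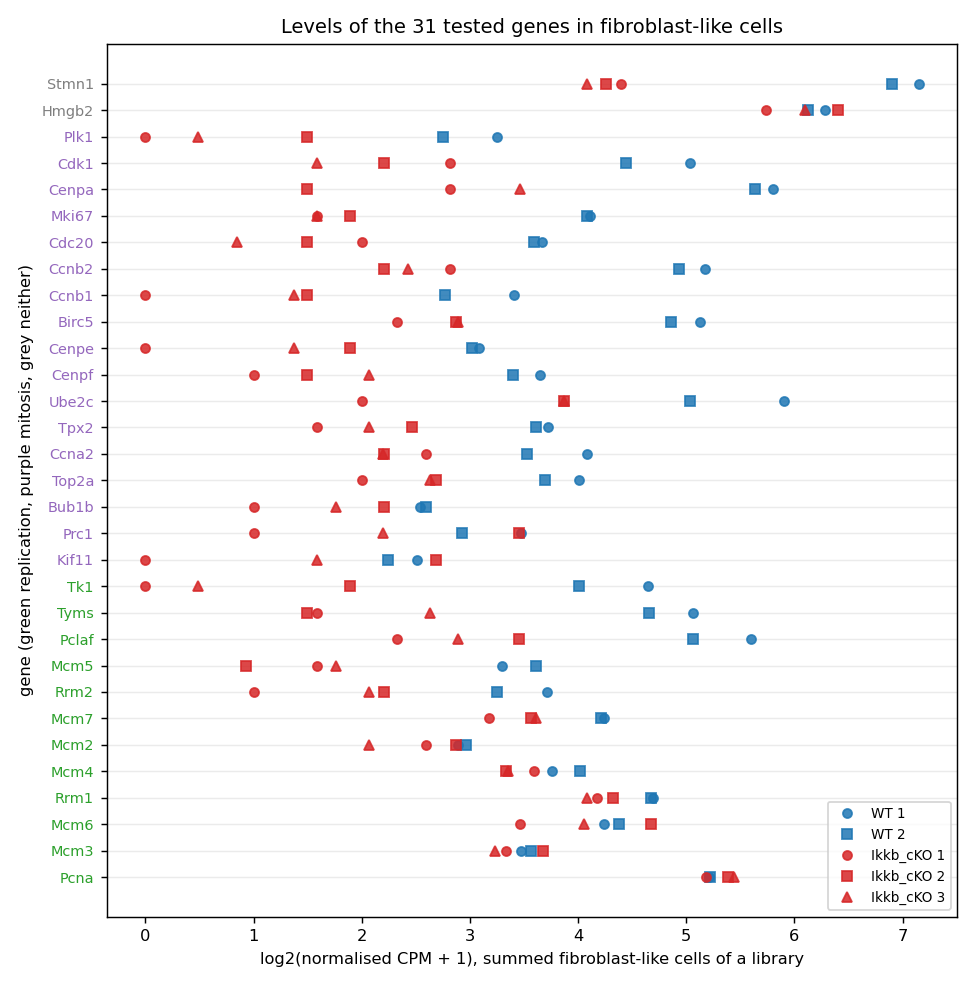
Normalised level of each of the 31 tested genes in summed fibroblast-like cells, as log2(normalised CPM + 1), a point per library (blue WT, red Ikkb_cKO), ordered by fold change within the mitosis and replication sets. The groups are far apart for Stmn1, Mki67 and Tk1 and overlap for Pcna, Mcm3, Mcm6 and Hmgb2.

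Fewer genes passed the filter and fell in reduced sets of cells. With each cell thinned to 1000 UMIs before summing, 11 genes passed the filter and 6 fell (Birc5, Ccnb2, Cenpa, Stmn1, Tyms and Ube2c). Over all genes, 1980 of 7275 were then called in either direction. With the marked cells left out, which was added after the data were seen, 14 passed and 4 fell (Ccnb2, Cenpa, Stmn1 and Tyms). Unadjusted, edgeR had 4 lower and 3 higher there. Over all genes, 3497 of 10362 were called in either direction with adjusted p. Marked cells were 112 in WT and 6 in Ikkb_cKO and were picked by mitosis genes, so this drop is partly built in. In the 3 shared clusters alone, also added after the data were seen, 2 passed the filter in edgeR and 0 fell, also unadjusted. Of these 2, Pcna rose by 0.87 (SE 0.31, edgeR adjusted p = 0.0489) and Hmgb2 stood at 0.01. Over all genes, 1391 of 4014 were called there in either direction. Summed marker genes of other cell types were low in the class. The 15 mural markers summed to 501 and 534 CPM in WT and 143, 132 and 469 in Ikkb_cKO, and the 11 B-lineage markers to 19.5 and 22.5 against 107, 73.2 and 48.6, beside 75441 to 95159 CPM for the 20 fibroblast markers. Their part in the result was not tested.

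The balance of replication to mitosis genes was separated between genotypes in fibroblast-like cells. The 14 replication genes summed to 249 and 223 CPM in WT and 109, 146 and 125 in Ikkb_cKO, and the 22 mitosis genes to 355 and 274 against 48.9, 85.3 and 70.1. The log2 ratio of replication to mitosis UMIs was -0.51 and -0.30 in WT and 1.15, 0.77 and 0.83 in Ikkb_cKO. Mitosis UMIs outnumbered replication UMIs in both WT libraries and were fewer in all 3 Ikkb_cKO libraries. The difference in means was 1.32, with exact permutation p = 0.1, the smallest possible. It was 1.09 (exact permutation p = 0.2) with cell cycle genes kept in the clustering. The side of equality depended on the genes summed. Without the 4 genes of the rule the log2 ratio was -0.07 to 0.17 in WT and 1.12 to 1.68 in Ikkb_cKO. With Hmgb2 and Stmn1 counted as mitosis genes it was -1.19 to -1.04 and -0.377 to -0.165. The genotypes did not overlap in either setting. Of the replication UMIs, 61.3% and 46.8% came from marked cells in WT and 4.67%, 16.6% and 6.90% in Ikkb_cKO. Of the mitosis UMIs, 88.1% and 82.8% did so in WT and 43.8%, 70.7% and 51.4% in Ikkb_cKO. Replication transcripts were found more often outside the marked cells, as a share, than mitosis transcripts in every library. The genes of the rule that marks cells are themselves among the mitosis genes summed, so this difference is partly built in. These shares were not computed without the genes of the rule.

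**Figure D4:**
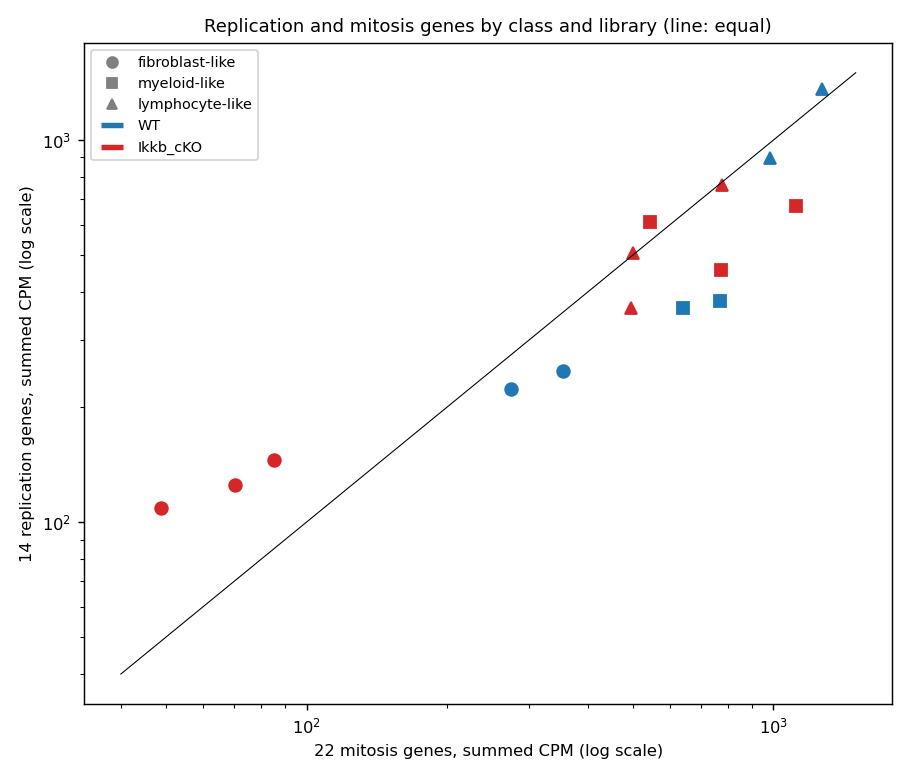
Summed CPM of the 14 replication genes against the 22 mitosis genes, both on log axes, for each library of the 3 tested classes; the line marks equal sums. The Ikkb_cKO fibroblast-like points lie above the line at 109 to 146 replication CPM, and the WT fibroblast-like points below it.

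In myeloid-like cells the genes did not fall as a group. Marked cells were 42 of 813 (5.17%) and 51 of 861 (5.92%) in WT and 13 of 140 (9.29%), 8 of 165 (4.85%) and 39 of 549 (7.10%) in Ikkb_cKO. Ikkb_cKO library 2 lay below both WT libraries and the other two above, and the means differed by 1.53 percentage points (exact permutation p = 0.5). Thinned to 1000 UMIs, the share with at least 1 UMI was 7.08% and 6.73% in WT and 13.5%, 7.76% and 10.9% in Ikkb_cKO, a difference of 3.81 (exact permutation p = 0.2). All 3 Ikkb_cKO values lay above both WT values.

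Of 36 genes tested in myeloid-like cells, 5 rose and 1 fell, while 8.87% of all 8979 genes tested were called higher and 9.51% lower. The share of members called higher, 5 of 36, is not far above this background. Pclaf stood at 78.3 and 80.3 normalised CPM in WT and 219, 156 and 134 in Ikkb_cKO (log2 1.06, SE 0.24, edgeR adjusted p = 0.0108). Pcna stood at 65.3 and 60.6 against 118, 161 and 103 (log2 0.98, SE 0.24, edgeR adjusted p = 0.0154). Both replication genes were higher in every Ikkb_cKO library. Hmgb2 rose by 0.83 (SE 0.22), the microtubule bundler gene Nusap1 by 1.20 (SE 0.33) and Mcm3 by 0.85, with edgeR adjusted p of 0.0251, 0.0278 and 0.0350. Tk1 went the other way, from 23.7 and 26.3 to 13.4, 12.8 and 10.2 (log2 -1.15, SE 0.29, edgeR adjusted p = 0.0189). Top2a, at 42.8 and 51.2 against 74.8, 74.1 and 74.0, missed the threshold (edgeR adjusted p = 0.0518). These calls were not stable: 3 rose without Ikkb_cKO library 2 and 9 without Ikkb_cKO library 3, and 0 fell without Ikkb_cKO library 3. Over all genes, 1397 of 9101 were called in either direction without Ikkb_cKO library 2. Without Ikkb_cKO library 3, 1830 of 8224 were called, beside 1650 of 8979 with all libraries. Leaving out WT library 1 or WT library 2, which keeps 1 WT library, lowered the calls among these genes and over all genes alike.

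By cluster, the marked myeloid-like cells of WT lay among several populations. Cluster 1, led by C1qb, C1qc and Pf4, genes of resident macrophages, held 13 of 407 and 12 of 402 marked WT cells and 0 of 6, 0 of 21 and 0 of 110 in Ikkb_cKO. A count of 0 in these 137 cells allows a share of up to 2.19%. Cluster 2, led by Retnla, Il1b and Lyz1, held 8 of 199 and 19 of 207 in WT and 3 of 59, 3 of 83 and 22 of 251 in Ikkb_cKO, with overlapping shares. Cluster 12, led by Cd74 and class II genes of antigen presentation, held 10 of 80 and 8 of 100 against 2 of 30, 2 of 20 and 11 of 108. In cluster 19, also led by Cd74 and class II genes, 6 of 24 and 3 of 29 were marked against 6 of 26, 3 of 20 and 5 of 44. Its pooled share, 16.1%, was the highest of the class. The largest cluster of the class thus differed, cluster 1 in WT (809 of 1674 cells) and cluster 2 in Ikkb_cKO (393 of 854). Cluster 19 held 53 WT and 90 Ikkb_cKO cells.

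In lymphocyte-like cells some genes fell and 0 rose. Marked cells were 6 of 129 (4.65%) and 11 of 113 (9.73%) in WT and 7 of 231 (3.03%), 5 of 178 (2.81%) and 34 of 509 (6.68%) in Ikkb_cKO. Library 3 of Ikkb_cKO lay between the WT libraries, and the difference of -3.02 percentage points had an exact permutation p of 0.3. Thinned shares were 8.20% and 10.3% against 5.73%, 5.03% and 7.59%, a difference of -3.12 (exact permutation p = 0.2). Of 27 genes tested, 7 fell and 0 rose, against 4.10% of all 5264 genes tested called lower and 6.65% higher. At an unadjusted p under 0.05, edgeR had 15 lower and 0 higher and DESeq2 13 and 0. With adjusted p, DESeq2 called 1 lower and 0 higher.

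Ube2c stood at 130 and 189 normalised CPM in WT lymphocyte-like cells and at 70.2, 57.2 and 75.9 in Ikkb_cKO (log2 -1.21, SE 0.26, edgeR adjusted p = 0.0129). Tyms stood at 77.8 and 63.0 against 15.9, 34.8 and 26.7 (log2 -1.44, SE 0.36, edgeR adjusted p = 0.0234). In both genes all Ikkb_cKO libraries lay below both WT libraries. Mcm5 fell by 1.56 (SE 0.42), Tk1 by 1.54 (SE 0.42), Mcm6 by 1.25 (SE 0.35), Cdk1 by 1.61 and Top2a by 0.92, with edgeR adjusted p between 0.0331 and 0.0466. Pcna (log2 -0.06) and Cenpa (-0.11) did not pass and overlapped. The count of 7 fell to 1 without WT library 1, 0 without WT library 2, 1 without Ikkb_cKO library 1 and 2 without library 2, and was 15 without library 3. Calls over all genes moved the same way. They went from 566 of 5264 to 308 of 4640 without Ikkb_cKO library 1 and 310 of 4783 without library 2. Without library 3 they were 1129 of 4631, and they also fell in the fits that kept 1 WT library. Different clusters held the class in the genotypes. Clusters 13 and 17, led by Ccl5 with the granule genes Gzmc, Nkg7 and Gzma, held 150 of 242 WT cells and 327 of 918 Ikkb_cKO cells. Clusters 11 and 25, led by Areg with the type 2 cytokine genes Il13 and Il5 or with Arg1, held 52 and 436. Within cluster 13, 9 of 97 WT cells (9.28%) and 18 of 185 Ikkb_cKO cells (9.73%) were marked, and within cluster 11, 1 of 35 (2.86%) and 12 of 355 (3.38%). In cluster 17 these were 7 of 53 (13.2%) and 9 of 142 (6.34%). The part of this makeup in the fall of the 7 genes was not tested.

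The genotype effect itself differed between classes. In a joint edgeR fit of the 3 classes with library as a block, 36 of the 38 genes were tested, and the effect in myeloid-like cells exceeded that in fibroblast-like cells for 16 of them and was lower for 0, while 6.04% of all 10592 genes were called higher and 6.05% lower. Unadjusted, 27 were higher and 0 lower in edgeR and 24 and 0 in DESeq2, and with adjusted p DESeq2 called 16 and 0. Mki67 differed by 3.18 on the log2 scale (edgeR adjusted p = 5.93e-05), Cenpa by 3.17 and Birc5 by 2.69. For lymphocyte-like against fibroblast-like cells 5 of 36 were higher and 0 lower, against 2.66% and 0.746% of all genes, and DESeq2 called 3 and 0, both with adjusted p. Unadjusted, 12 were higher and 1 lower in edgeR and 9 and 1 in DESeq2. The 5 called in edgeR were Tk1, Mki67, Birc5, Cenpa and Cenpf. Without WT library 1 the counts were 6 and 1, and the lymphocyte-like count was 2 without WT library 2 and 3 without Ikkb_cKO library 1 or 2. With a WT library left out, fewer of all genes were called as well. The class comparisons use the same libraries.

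**Figure D5:**
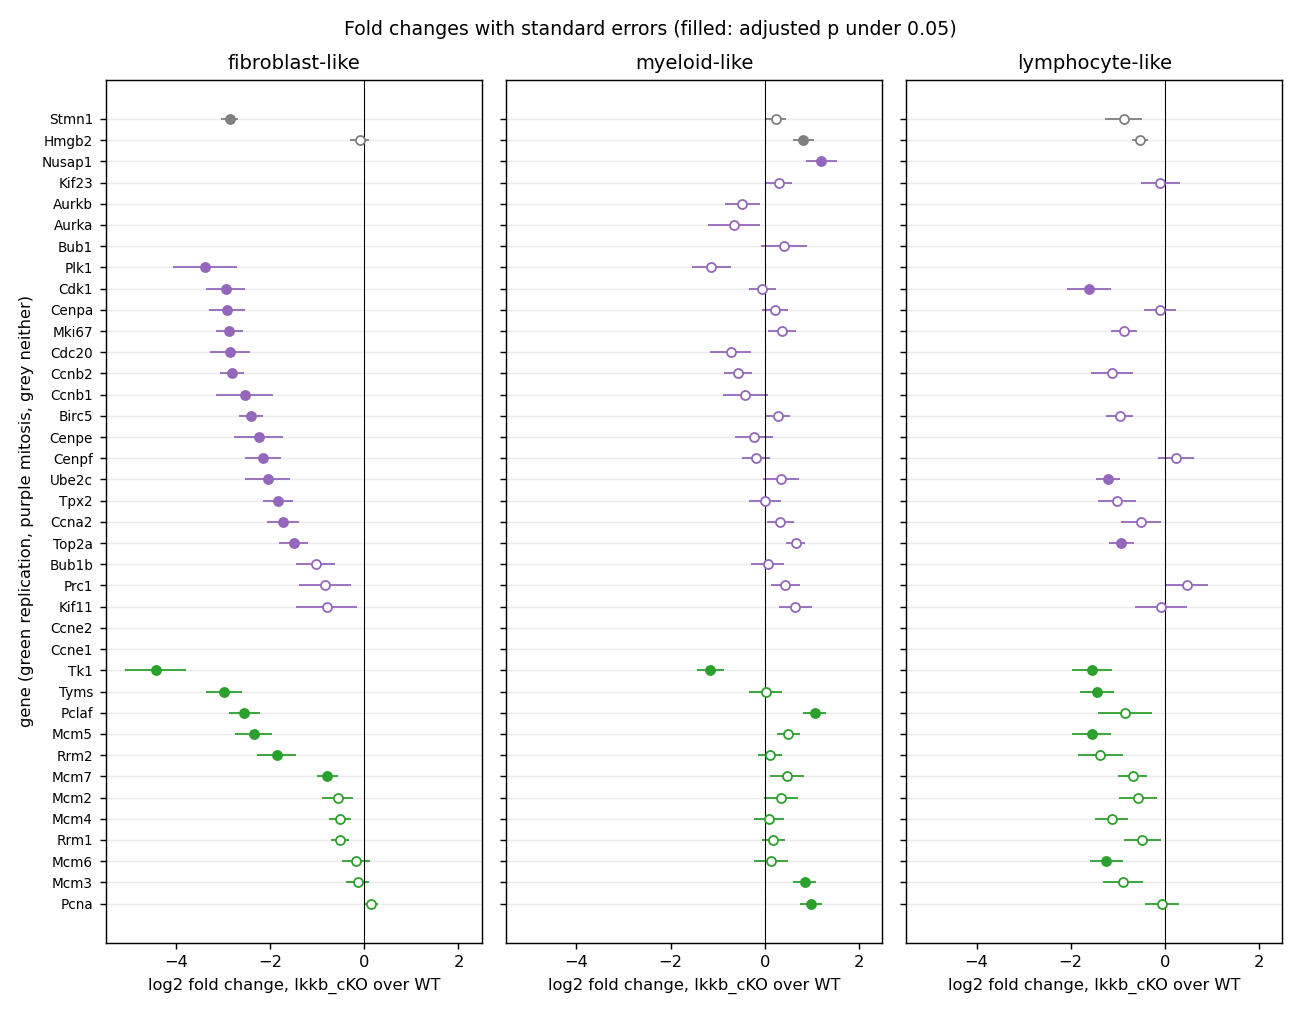
Log2 fold change of Ikkb_cKO over WT with its standard error for each gene in fibroblast-like, myeloid-like and lymphocyte-like cells; filled points pass an adjusted p of 0.05 in edgeR, and a gene with no point did not pass the filter in that class. In fibroblast-like cells 21 points are filled, all below 0, and in myeloid-like cells 5 of the 6 filled points lie above 0.

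The other classes were too small in some libraries to test. Keratinocyte-like cells came mainly from Ikkb_cKO library 3, where 48 of 303 cells (15.8%, exact binomial 95% interval 11.9% to 20.4%) were marked, 47 of them among the 183 cells of cluster 15, led by Lgals7 and the basal keratin genes Krt15 and Krt5. Cluster 20, led by Krt77 and Krtdap, genes of differentiating layers, had 1 marked of 120 cells in that library. The other libraries held 0 of 14 and 3 of 27 marked keratinocyte-like cells in WT and 1 of 9 and 1 of 11 in Ikkb_cKO. Endothelial-like cells had 3 marked of 139 in WT and 0 of 57 in Ikkb_cKO, and mural-like cells 2 of 103 and 1 of 28. Among 125 mast-like, 184 muscle-like and 30 Schwann-like cells none was marked. Of the B-lineage-like cells, 1 of 15 in WT and 3 of 38 in Ikkb_cKO were marked. An unnamed cluster led by Acta2, Myog, Des and Mest, of which Myog is a regulator of muscle differentiation, had 8 marked of 47 WT and 2 of 25 Ikkb_cKO cells.

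Summed over the 36 replication and mitosis genes, WT lymphocyte-like cells held 2257 ± 535 CPM (SD, n = 2) and those of Ikkb_cKO 1136 ± 359 (SD, n = 3), myeloid-like cells 1075 ± 102 and 1390 ± 347, and fibroblast-like cells 550 ± 75.0 and 195 ± 36.5. Across the 5 libraries the ranges were 858 to 2635, 1003 to 1788 and 158 to 603. The fibroblast-like range lay below the other two, which overlapped. Of all 38 genes, muscle-like cells had 57 UMIs in WT, with 24 genes at 0.

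Genes outside the rule were higher in marked cells too. In fibroblast-like cells all 18 mitosis genes outside the rule and all 14 replication genes were higher in the 118 marked cells than in the other 5378, by a median of 110-fold and 11.2-fold. This describes cells chosen by correlated genes and is no test. Both genotypes were pooled, and 112 of the 118 marked cells were WT. Among the replication genes ratios ran from 4.44 for Mcm4 and 5.10 for Pcna to 136 for Pclaf and 140 for Tk1. Among the mitosis genes outside the rule they ran from 37.6 for Ccnb2 to 227 for Aurka, and Stmn1 stood at 27.7. The tested replication genes that did not pass between genotypes were among those with the lowest ratios, since Mcm4, Pcna, Mcm6, Mcm3, Rrm1 and Mcm2 had 4.44 to 9.95, while Mcm7, which passed, had 8.95. The pooled ratio holds part of the genotype difference itself, so this likeness is partly built in. The marked WT fibroblast-like cells had a median of 12368 UMIs. Median ratios of the mitosis genes were 45.2 in myeloid-like, 58.3 in lymphocyte-like and 29.0 in keratinocyte-like cells.

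Most marked cells held more mitosis than replication UMIs. This was so for 83 of 112 WT and 6 of 6 Ikkb_cKO fibroblast-like cells, for 77 of 93 and 43 of 60 myeloid-like cells, for 9 of 17 and 27 of 46 lymphocyte-like cells, and for 28 of 50 keratinocyte-like cells of Ikkb_cKO. The rule itself sums mitosis genes, so this balance partly follows from it. Outside the lists and with genotypes pooled, the histone gene Hist1h2ap was 414 times and the linker histone gene Hist1h1b 119 times higher in marked fibroblast-like cells, Pimreg 220 times and Ska1, a kinetochore component, 183 times. In myeloid-like cells Hist1h1d and the histone chaperone gene Asf1b were 44.7 and 30.5 times higher. In keratinocyte-like cells the Wnt inhibitor gene Wif1 was 58.7 times higher over the pooled libraries, with 3 UMIs in other cells. Only 1 library had enough marked keratinocyte-like cells to check the direction.

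Genes of cell subsets were compared between marked and other cells within each genotype. In WT fibroblast-like cells Fabp4, a fatty acid carrier, was 2.62 times and Crabp1, a retinoic acid carrier, 1.55 times as high in CPM in the marked cells. Matrix genes were lower there, at 0.454 times for Col1a1 and 0.46 times for Dcn. The 6 marked Ikkb_cKO cells stood at 0.415 and 0.592 times for these matrix genes. In myeloid-like cells Cd163, a macrophage scavenger receptor, was at 0.243 times in WT and 0.386 times in Ikkb_cKO, while the monocyte receptor gene Ccr2 (0.979 and 0.901) and the class II gene H2-Ab1 (1.00 and 0.987) lay close to equal. Among lymphocyte-like cells Cd8a was 4.26 times as high in the 17 marked WT cells and 1.40 times in the 46 of Ikkb_cKO, and Nkg7, a granule gene of cytotoxic cells, 1.26 and 1.09 times. With genotypes pooled, every other gene of the lymphocyte list was lower in CPM in marked cells, with Ccl5 at 0.544 times and Cd3e at 0.718. By cells holding the gene, Ccl5 (42.9% of marked against 30.3% of other cells), Cd3e, Cd4 and Il2ra stood higher in marked cells, and the rest lower. In pooled myeloid-like cells Ly6c2 stood at 0.165 times, Pf4 at 0.385, Retnla at 0.372 and Ear2 at 0.581, while Xcr1 (1.54) and S100a8 (1.64) were higher. S100a8 was found in 0.654% of the 153 marked cells and 1.14% of the others, so its ratio rests on very few cells. These ratios pool the cells of libraries and carry no test.

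Cell cycle regulators outside the 38 genes moved in both directions in fibroblast-like cells. Of 8 G1 cyclins and kinases tested, 3 rose and 2 fell, while 17.3% of all 10419 genes tested were called higher and 18.3% lower. Ccnd1, cyclin D1, stood at 3.80 and 5.83 normalised CPM in WT and 23.1, 38 and 70.4 in Ikkb_cKO (log2 3.25, SE 0.50, edgeR adjusted p = 0.00571). Its partner kinase genes went opposite ways, with Cdk6 at 5.00 and 6.26 against 33.2, 26.3 and 21.2 (log2 2.21, SE 0.27, edgeR adjusted p = 0.00254) and Cdk4 at 241 and 246 against 118, 127 and 103 (log2 -1.07, SE 0.14, edgeR adjusted p = 0.00295). All 3 genes were separated between genotypes. Cdk2 rose by 1.02 and Ccnd3, cyclin D3, fell by 1.03 on the log2 scale.

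Of 7 CDK inhibitor genes tested, 4 fell and 2 rose. Cdkn1b, which encodes p27, stood at 28.1 and 24.8 normalised CPM in WT and 73.5, 95.1 and 62.8 in Ikkb_cKO (log2 1.53, SE 0.21, edgeR adjusted p = 0.00355). Cdkn3, a phosphatase gene that peaks in dividing cells, fell by 2.82 (SE 0.39, edgeR adjusted p = 0.00341), and Cdkn2d, which encodes p19, fell by 1.42 (SE 0.27, edgeR adjusted p = 0.00893). Of 13 pocket protein and E2F genes, Lin9 and E2f3 rose by 1.99 and 0.85 and Lin37 fell by 1.31. Of 16 checkpoint and arrest genes, Gadd45a rose by 1.68 and Trp53 fell by 1.06. In these last 2 lists the counts called were not above the shares over all genes (18.3% lower and 17.3% higher).

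Other genes of the 2 phases were tested in the same sums. Among 32 other mitosis genes 24 fell and 0 rose, with a median log2 fold change of -1.65, among them Cdca3 (-2.42), the histone gene H2afx (-1.87) and the kinetochore gene Spc24 (-2.71). Among 22 other replication genes 9 fell and 0 rose, with a median of -0.85, among them the helicase cofactor gene Gins2 (-2.21), the polymerase gene Pold1 (-2.71) and Chaf1b, a histone chaperone subunit. Chaf1b had 4 UMIs in Ikkb_cKO. In myeloid-like cells 1 of 47 other mitosis genes rose and 1 fell, and 1 of 35 other replication genes rose. In lymphocyte-like cells 3 of 22 and 3 of 19 fell and 0 rose. Over all genes tested, 18.3% were called lower in fibroblast-like, 9.51% in myeloid-like and 4.10% in lymphocyte-like cells, and 17.3%, 8.87% and 6.65% higher.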

How the data were processed

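Ventral skin cells of 5 libraries (2 WT, 3 Ikkb_cKO) were measured. Each deposited matrix gives raw UMI counts by gene and barcode. The submitters' processing notes name Cell Ranger 1.3.0 and mm10, and the file headers name software version 3.0.1.

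Barcodes under 300 genes or over 10% mitochondrial UMIs were dropped, leaving 10611. Scrublet's own threshold marked only 0.245% of cells, so the highest scores were removed in each library, up to an assumed doublet rate of 0.008 for each 1000 cells (221, of which 12 were marked). Counts were scaled to 10000 per cell and logged, and 2000 variable genes without cell cycle genes gave 30 principal components, a graph of 15 neighbours and Leiden clusters at resolution 1.0 (scanpy 1.11.5). A cluster was named from at least 3 markers among its 50 leading genes, and 123 cells stayed unnamed. UMIs were summed per library and class, filtered by filterByExpr, normalised by TMM and tested with edgeR 4.0.16 (robust quasi-likelihood, Benjamini-Hochberg over all genes of a class, threshold 0.05), where every library had 20 or more cells of a class. The log2 ratio of replication to mitosis UMIs added 0.5 to each sum. Classes were not tested against each other for level, since they came from clustering the same cells.

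The members, lists and tests were chosen with earlier results of these data known. All 38 members may be named, with full statistics for up to 8 replication and 8 mitosis genes by smallest p in fibroblast-like cells and 5 in other classes. Pcna, Stmn1 and Hmgb2 in fibroblast-like cells were given in full outside this rule, after their values were seen. Of the other lists the 3 genes with the smallest p are named, or all called genes where there are 5 or fewer. Genes outside the lists were ranked by their ratio in marked cells, with at least 50 CPM. Alternatives were leaving out each library, other cell filters, no doublet removal, cell cycle genes kept in clustering, Leiden resolutions 0.5 and 2.0, other size factors, DESeq2 1.42.0, other low-count filters, a replicate block, thinned cells and other UMI thresholds. Leaving out marked cells, using shared clusters and comparing marked with other cells within a genotype were added after the data were seen.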

Additional observations from a re-analysis of the deposited data

Results flagged for a closer look

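The effect of genotype differed between cell classes for 21 gene and class pairs, by the class by genotype term of a joint edgeR fit with library as a block. In each, the log2 fold change of Ikkb_cKO over WT was higher in the other class than in fibroblast-like cells.

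For myeloid-like against fibroblast-like cells the replication genes that differed were Pclaf by 3.65, Tk1 by 3.20, Tyms by 2.94, Mcm5 by 2.80 and Rrm2 by 1.87. The mitosis genes were Mki67 by 3.18, Cenpa by 3.17, Cdk1 by 2.88, Birc5 by 2.69, Kif23 by 2.69, Ccnb2 by 2.23, Top2a by 2.15, Ccna2 by 2.01, Cenpf by 1.92 and Tpx2 by 1.86, and Stmn1, which is in neither set, differed by 3.11. The adjusted p in edgeR ran from 2.2e-06 for Cenpa to 0.0312 for Pclaf.

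For lymphocyte-like against fibroblast-like cells the differences were Tk1 by 2.92, Cenpa by 2.91, Cenpf by 2.40, Mki67 by 2.04 and Birc5 by 1.51. The adjusted p in edgeR was 5.27e-05 for Cenpa and between 0.0197 and 0.044 for the other 4. All 5 were also among the 16 for myeloid-like cells, and both sets share the fibroblast-like values. Depth, cluster makeup and genotype moved together in fibroblast-like cells, and their part in these differences was not tested.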

How the results depend on the processing

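In fibroblast-like cells the count of genes that fell (21) ran from 9 to 21 with a library left out and was 6 with thinned cells, 4 without marked cells and, in the shared clusters, 0, where 1 of the 2 tested rose; 0 rose under the other settings listed. In myeloid-like cells the count that rose (5) ran from 0 to 9 with a library left out and was 3 with DESeq2, 8 with the replicate block, 0 with thinned cells and 2 without marked cells, and the count that fell (1) ran from 0 to 1 and was 0 under each of these 4. In lymphocyte-like cells the count that fell (7) ran from 0 to 15 with a library left out, and was 2 with the stricter cell filter (500 genes or more, mitochondrial UMIs up to 5%), 1 with DESeq2, 12 without a filter, 17 with the replicate block, 0 with thinned cells and 0 without marked cells. The differences between classes ran from 6 to 18 (myeloid-like) and 1 to 4 (lymphocyte-like) with a library left out, and the latter was 3 without doublet removal, 1 with cell cycle genes in the clustering, 3 with DESeq2's size factors, 3 with its test and 8 without a filter. The share of marked myeloid-like cells turned to -0.305 percentage points (exact permutation p = 0.7) at 3 UMIs in thinned cells, and the lymphocyte-like replication ratio ran from -0.25 to 0.0136 with a library left out, the last without Ikkb_cKO library 1. Rrm1 in fibroblast-like cells turned to 0.0127 with thinned cells and 0.0606 without marked cells. The cause was not tested, beyond fewer genes and samples entering the smaller fits. Leaving out a WT library lowered the calls over all genes in each class and in the joint fit.

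The replicate numbers did not pair the libraries (correlations of deviations within 0.0504 of 0). With the replicate block 21 genes fell in fibroblast-like cells and the share of marked cells differed by -2.88 percentage points. The fibroblast-like share difference (-2.80) ran from -2.89 to -2.70 with a library left out. Depth limits the Ikkb_cKO sums, where 38 genes gave 1295 UMIs in fibroblast-like cells against 16325 in WT.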
